A study of Saccharomyces cerevisiae with 12 samples.

Results

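The 8 core histone genes of budding yeast lie in 4 divergently transcribed pairs, HTA1-HTB1, HTA2-HTB2, HHT1-HHF1 and HHT2-HHF2, and DNA copy number around each pair was followed as cells left G1 arrest. The members are the 1000-bp rows of the deposited ratio table whose centre lay within 5 kb of the centre of a pair. Of 40 such rows, 2 were dropped because a ratio there was exactly 0, which left 38 of the 11630 nuclear rows that were used and of 12165 rows in all. The rule uses gene names and positions, and no ratio other than an exact 0, which removes a row. Each pair was set against the rows 10 to 40 kb away on the same chromosome, called the flanks.

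Each core histone of Saccharomyces cerevisiae is encoded by a pair of genes. HTA1 and HTA2 encode H2A, HTB1 and HTB2 encode H2B, HHT1 and HHT2 encode H3, and HHF1 and HHF2 encode H4. The pairs are transcribed in a burst as cells enter S phase. The Swi4-Swi6 factor and the Spt10 and Spt21 activators switch them on, and the HIR complex represses them outside S phase in all pairs but HTA2-HTB2. Replication of a chromosome starts at many origins that fire at different times, so a locus near an early origin is doubled in DNA content before its surroundings, and the lead disappears once the surroundings are copied.

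Both strains grew in YPD medium and were treated for 2 h with α-factor, the mating pheromone that stops cells in G1. A wash with a protease, which destroys the pheromone, released them, and samples were taken at 0, 20 and 40 min. The wild type was the laboratory strain w303a, and the mutant was strain JG2087, labelled eco1-W216G, a point mutant of the acetyltransferase that modifies cohesin during S phase, called eco1 here. Libraries were made by tagmentation (Nextera XT) from 8 ng of genomic DNA, and each strain and time has 2 of the 12 libraries. Each 20- and 40-min library was deposited as a log2 ratio to a 0-min library, which gives 8 ratio columns in 4 groups of 2. A ratio above the flanks means that more copies of the locus than of its surroundings were sequenced, relative to 0 min. In a population, a locus copied in fewer cells and one copied later in every cell cannot be told apart. A point mutation leaves no mark on copy number, so the genotype could not be checked here, and mutant and strain background cannot be told apart from labels that give 1 strain of each kind.

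Libraries held 5293237 to 10362815 mapped reads, and the median row held 467 to 897 of them. Nothing in the labels says that replicates were separate cultures, so the SDs and p-values below measure the spread between these libraries. Over 1114 windows of 10 kb, the 2 replicates of a group correlated with r = 0.678 (wild type, 20 min), 0.488 (wild type, 40 min), 0.847 (eco1, 20 min) and 0.404 (eco1, 40 min). Over single rows r was 0.131, 0.356, 0.749 and 0.298, in the same order. Values of 1 or a few rows below thus repeat less well than those of windows, least so in wild type at 20 min. These are descriptions across windows or rows that share their libraries. A histone window held 3347 to 9025 reads per library. Counting error alone gave the difference between window and flanks, a plain mean over rows, an SD of 0.0249 to 0.0373 (log2) in 3 pairs and of 0.0451 to 0.0575 at HHT2-HHF2. The HHT2-HHF2 window holds 2 nearly empty rows, XIV:571001-572000 with 16 to 30 reads per library and XIV:573001-574000 with 15 to 52. Ratio columns were centred on the median of each chromosome, which removes any difference in the dose of whole chromosomes.

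HTA1 (YDR225W, IV:915530-915928) and HTB1 (YDR224C, IV:914317-914712) lie 817 bp apart in a window that also holds CRF1, ADK1 and part of SIR4, the silencing gene. HTA2 (YBL003C, II:235394-235792) and HTB2 (YBL002W, II:236492-236887) lie 699 bp apart beside the centromere of chromosome II, with the end of UTP20, ECM15 and part of the trehalase gene NTH2 in the window. HHT1 (YBR010W, II:256331-256741) and HHF1 (YBR009C, II:255373-255684) lie 646 bp apart on the same chromosome, near FLR1, a drug transporter gene, and IPP1, the pyrophosphatase gene. HHT2 (YNL031C, XIV:575640-576050) and HHF2 (YNL030W, XIV:576727-577038) lie 676 bp apart between SIW14 and KTR5. Positions are those of the R64 assembly, in RefSeq's gene table. No window holds a tRNA gene. The 2 dropped rows lie to the right of HHT1 and overlap YBR012W-A and YBR012W-B, the genes of a Ty1 element, so that this window has 8 rows where the others have 10. HTA2-HTB2 and HHT1-HHF1 are close enough that each lies in the other's right or left flank.

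In wild type at 20 min, 3 pairs stood above their flanks and 1 below. HTA1-HTB1 differed most from its flanks, HHT1-HHF1 nearly as much, HTA2-HTB2 less, and HHT2-HHF2 lay in a dip. All 4 pairs passed the test of limma with Benjamini-Hochberg adjustment over all windows at a threshold of 0.05. Of all 1114 windows, 12.7% passed in either direction, 8.71% higher and 4.04% lower, and the median window stood at -0.0096.

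For HTA1-HTB1 the centred level of the window was 0.23 in both wild-type 20-min columns, and the difference from the flanks was 0.29 in replicate 1 and 0.25 in replicate 2. Every one of the 10 rows lay above the flank level in both columns. The mean difference of 0.27 ± 0.028 (SD, n = 2) corresponds to 1.20-fold more DNA than in the flanks (limma adjusted p = 0.000885), and it was the fifth highest of 1114 windows, rank 5.

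For HHT1-HHF1, the H3-H4 pair of chromosome II, the difference from the flanks was 0.23 and 0.21, with a mean of 0.22 ± 0.016 (SD, n = 2) or 1.16-fold (limma adjusted p = 0.00050), rank 26 of 1114. Of its 8 rows, 8 and 7 lay above the flank level.

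For HTA2-HTB2, the H2A-H2B pair of chromosome II, the values were 0.080 and 0.14, with a mean of 0.11 ± 0.043 (SD, n = 2) or 1.08-fold (limma adjusted p = 0.0325), rank 102 of 1114. Its window stood at 0.18 ± 0.042, but its flanks stood at 0.073 and include HHT1-HHF1, and without the rows of other pairs in the flanks the difference was 0.15 (limma adjusted p = 0.00672). The call for HTA2-HTB2 was lost without wild-type 20-min replicate 1 (0.14, limma adjusted p = 0.0820) or 2 (0.080, 0.456), without wild-type 0-min replicate 1 (0.14, 0.0956) or 2 (0.080, 0.567), without either eco1 20-min library (0.11, 0.0532), with flanks from 5 to 20 kb (0.083, 0.0816), with half-widths of 2.5 kb (0.16, 0.0654) and 10 kb (0.058, 0.125), and with the right flank alone (0.044, 0.534).

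For HHT2-HHF2, the H3-H4 pair of chromosome XIV, the difference from the flanks was -0.15 in both columns, with a mean of -0.15 ± 0.0012 (SD, n = 2) or 1.11-fold less DNA than in the flanks (limma adjusted p = 0.00549). Only 13 windows of 1114 stood lower. The SD of 0.0012 is below the counting error of each column. With reads summed over rows, which gives the nearly empty rows little weight, the difference was -0.17 (limma adjusted p = 0.00109). The window itself stood at -0.052 and its flanks at 0.097, so most of the difference comes from flanks above the chromosome median, and without flank subtraction the call was lost (-0.052, limma adjusted p = 0.294). It was also lost with flanks from 5 to 20 kb (-0.10, 0.0703), without wild-type 20-min replicate 1 (-0.15, 0.0683) or 2 (-0.15, 0.0931), and without wild-type 0-min replicate 1 (-0.15, 0.0719) or 2 (-0.15, 0.102).

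In order of their difference from the flanks at 20 min in wild type, HTA1-HTB1 exceeded HHT1-HHF1 by 0.051 with a combined standard error of 0.046, so these neighbours did not differ beyond their spread. HHT1-HHF1 exceeded HTA2-HTB2 by 0.11 (combined SE 0.040) and HTA2-HTB2 exceeded HHT2-HHF2 by 0.26 (combined SE 0.042). Combined standard errors, here and for eco1 below, treat the pairs as independent, though their values come from the same columns. HTA2-HTB2 and HHT1-HHF1 also lie in each other's flanks, so a raised window of one lowers the difference of the other. The order itself was not tested. The 2 genes of a pair share a window, so no order within a pair can be read. At this resolution the copies of a histone also parted: the H3-H4 pair on chromosome II and that on chromosome XIV stood on opposite sides of their flanks.

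**Figure D1:**
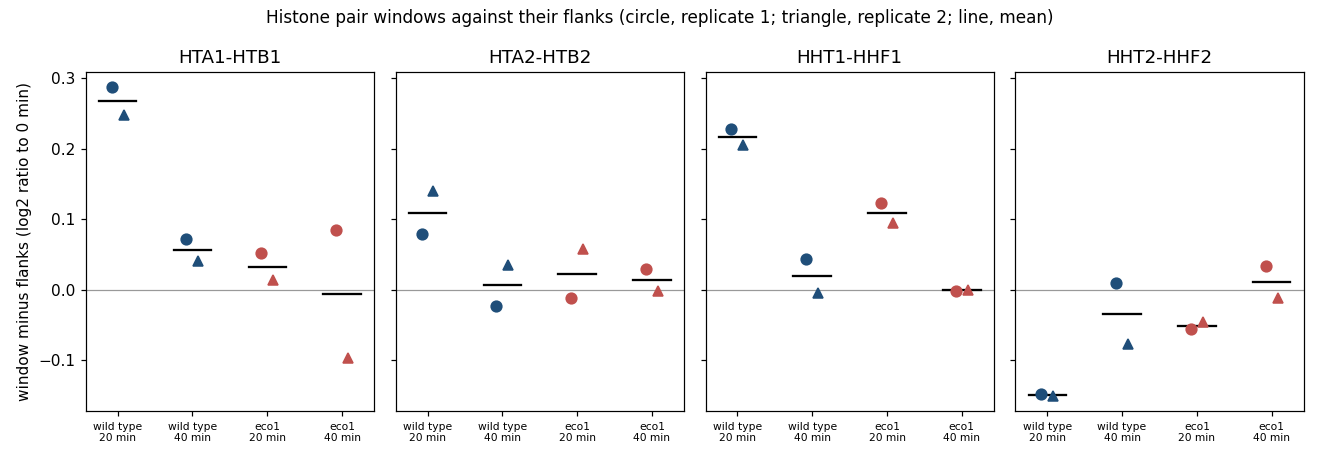
Difference between each histone pair's window and its flanks (y axis, log2 ratio to 0 min) in every ratio column, by strain and time (x axis); circles are replicate 1, triangles replicate 2 and bars the mean of the 2. In wild type at 20 min HTA1-HTB1 (0.27) and HHT1-HHF1 (0.22) stand highest and HHT2-HHF2 (-0.15) lowest, and at 40 min all pairs of both strains lie between -0.097 and 0.085.

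The rise in wild type at 20 min was local to 3 of the pairs. Around HTA1-HTB1 the rows within 2.5 kb stood at 0.25 ± 0.018 (SD, n = 2), those at 2.5 to 5 kb at 0.21 ± 0.015, those at 5 to 10 kb at 0.090 ± 0.087 and those at 10 to 20 kb at -0.061 ± 0.010. To the right the level stepped down from 0.28 through 0.14 to 0.087. To the left it was 0.22 within 2.5 kb, 0.26 at 2.5 to 5 kb and 0.093 at 5 to 10 kb. The running mean of 5 rows had its top at -1.60 kb from the centre of the pair (negative distances are to the left), on the row that holds the end of CRF1. Around HHT1-HHF1 the same 4 distances gave 0.29 ± 0.061, 0.22 ± 0.076, 0.078 ± 0.085 and 0.11 ± 0.032, and the top lay at -1.50 kb, between FLR1 and HHF1. To the right of this pair 1 row was used at 2.5 to 5 kb and 0 at 5 to 10 kb, so the value of 0.078 is from the left alone. Around HTA2-HTB2 they gave 0.24 ± 0.068, 0.13 ± 0.016, 0.082 ± 0.017 and 0.11 ± 0.015, with the top at 1.40 kb, on the row of ECM15. The stretch 10 to 20 kb to the right of HTA2-HTB2, at 0.20 ± 0.0058, holds the left side of the HHT1-HHF1 rise. It overlaps the window of that pair and is not a separate top.

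Around HHT2-HHF2 no top was found within the window. Rows within 2.5 kb stood at -0.067 ± 0.0037 and rows at 2.5 to 5 kb at -0.038 ± 0.0039. The raised stretches lay farther out, at 0.30 ± 0.11 for 7 rows 10 to 20 kb to the left and 0.15 ± 0.037 for 20 rows 20 to 40 kb to the right.

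**Figure D2:**
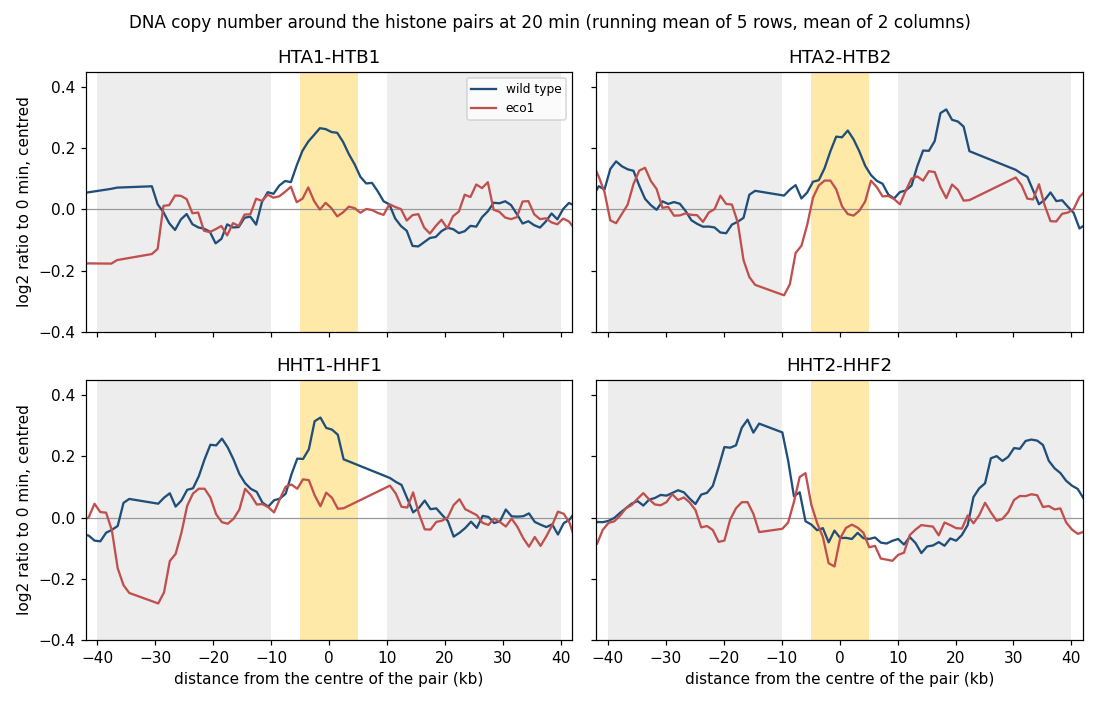
Centred log2 ratio to 0 min at 20 min (y axis; running mean of 5 rows, mean of the 2 columns of a strain) against distance from the centre of each pair in kb (x axis), in wild type (blue) and eco1 (red); the yellow band is the window and the grey bands the flanks, and straight segments bridge dropped rows. The wild-type curve peaks at 0.27, 0.26 and 0.33 within the windows of HTA1-HTB1, HTA2-HTB2 and HHT1-HHF1, and runs below 0 through that of HHT2-HHF2.

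Single rows did not step down at every border. In the running mean the 5-kb border of the windows falls on the slopes of the raised profiles. In wild type at 20 min the outermost rows inside it stood at 0.18 (left) and 0.067 (right) for HTA1-HTB1, and the next rows outside at 0.11 and 0.092. For HTA2-HTB2 they stood at 0.056 and 0.11 inside and 0.057 and 0.14 outside. For HHT1-HHF1 the outermost left row stood at 0.28 inside and 0.14 outside, and the rows on both sides of the right border were dropped. For HHT2-HHF2 they stood at 0.15 and -0.11 inside and -0.13 and 0.020 outside, but the row at 0.15 is one of the nearly empty ones, with wild-type values of 0.67 and -0.13 at 40 min.

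In wild type at 40 min none of the 4 pairs differed from its flanks by the test. Differences were 0.072 and 0.041 for HTA1-HTB1, -0.023 and 0.035 for HTA2-HTB2, 0.044 and -0.0049 for HHT1-HHF1, and 0.0098 and -0.077 for HHT2-HHF2. Limma adjusted p values ran from 0.518 (HTA1-HTB1) to 0.954 (HTA2-HTB2), in a comparison in which 0.0898% of windows, 1 of 1114, passed and 141 had an unadjusted p under 0.05. The level of the HHT1-HHF1 window at 40 min, 0.12 ± 0.013, was close to that of its flanks, 0.098 ± 0.022. Rows over the histone genes, which were not tested apart, still differed from the flanks by 0.15 ± 0.019 (SD, n = 2) at HTA1-HTB1. Their difference was 0.12 ± 0.073 at HTA2-HTB2, 0.24 ± 0.036 at HHT1-HHF1 and -0.0077 ± 0.019 at HHT2-HHF2. The other rows of these windows differed by 0.033, -0.023, -0.054 and -0.045, in the same order.

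Between 20 and 40 min in wild type, both 40-min values lay below both 20-min values for HTA1-HTB1, HTA2-HTB2 and HHT1-HHF1 and above both for HHT2-HHF2. Such separation was found at 44.3% of all windows, 20.9% lower and 23.4% higher. The 20- and 40-min columns of a replicate share their 0-min library, so these are not 4 independent ratios. HHT1-HHF1 fell by 0.20 (SE 0.038, limma adjusted p = 0.0218), the 1 pair of 4 that passed, where 1.8% of windows passed and all 20 of them fell. The change was -0.21 for HTA1-HTB1 (SE 0.053, limma adjusted p = 0.0787), -0.10 for HTA2-HTB2 (SE 0.043, 0.333) and 0.12 for HHT2-HHF2 (SE 0.041, 0.245). The call for HHT1-HHF1 was lost in 17 of 33 other settings, among them without any of the 4 wild-type 20- and 40-min libraries (limma adjusted p 0.0967 to 0.204), without wild-type 0-min replicate 1 (0.399) or 2 (0.624) and without either eco1 20-min library (0.0580). With the replicate number as a block within each strain, HTA1-HTB1 passed as well (limma adjusted p = 0.0327).

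**Figure D3:**
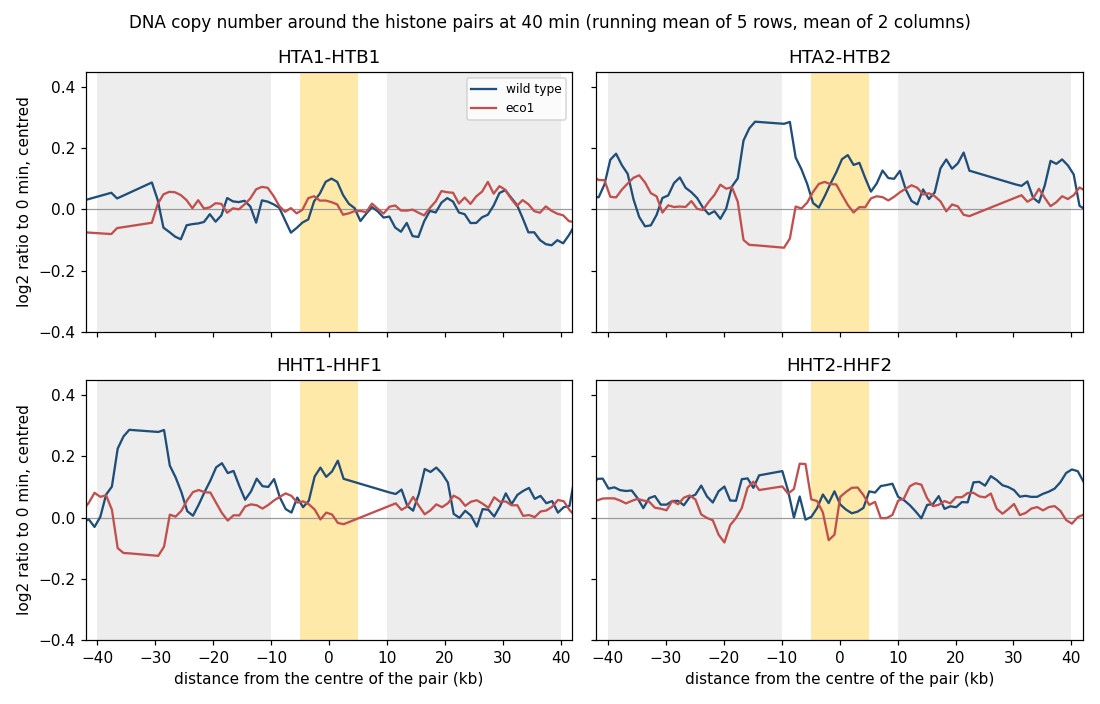
Centred log2 ratio to 0 min at 40 min around each pair, drawn as for 20 min. The wild-type tops within the windows are lower than at 20 min, 0.10 for HTA1-HTB1 and 0.19 for HHT1-HHF1. Near HTA2-HTB2 the wild-type top of 0.29 lies outside the window, at -8.60 kb.

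In eco1 at 20 min no pair passed the test against its flanks, and HHT1-HHF1 had the highest value of the 4. Its difference from the flanks was 0.12 and 0.094, with a mean of 0.11 ± 0.021 (SD, n = 2) or 1.08-fold, rank 28 of 1114 (limma adjusted p = 0.0681), a mean that equals that of HTA2-HTB2 in wild type to 2 decimals. HTA1-HTB1 stood at 0.052 and 0.014, HTA2-HTB2 at -0.012 and 0.057, and HHT2-HHF2 at -0.056 and -0.045. With limma adjusted p of 0.677, 0.711 and 0.359 for these 3, none of the 4 pairs passed, where 1.62% of windows, 18 of 1114, passed (0.898% higher) and 216 had an unadjusted p under 0.05. HHT1-HHF1 passed in 9 of 32 other settings, among them without either eco1 40-min library (limma adjusted p = 0.0237) and with rows over the histone genes left out (0.19, limma adjusted p = 0.0307). In the order of the pairs, HHT1-HHF1 exceeded HTA1-HTB1 by 0.076 (combined SE 0.046), and HTA1-HTB1 and HTA2-HTB2 differed by 0.0099 (combined SE 0.048).

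Whether the strains differed at the histone loci at 20 min was tested as eco1 minus wild type. Both eco1 values lay below both wild-type values at HTA1-HTB1, HTA2-HTB2 and HHT1-HHF1 and above them at HHT2-HHF2. Each pair thus stood nearer to its flanks in eco1. Over all 1114 windows, the wild-type and eco1 means at 20 min correlated with r = 0.121. Replicates at 20 min correlated with r = 0.678 in wild type and 0.847 in eco1. The profiles of the strains thus differed over the windows as a whole. The weaker eco1 values cannot be read as a trait of the histone pairs alone. Groups that do not overlap were found at 55.0% of all windows, 24.7% lower and 30.3% higher, and none of the 4 differences passed, where 0.718% of windows, 8 of 1114, passed in limma and 199 had an unadjusted p under 0.05. In simulated data with spreads taken from these windows, 914 of 1114 windows were left unchanged. There this comparison recovered 20% of changes of 0.1 and 76% of changes of 0.2. A larger share of windows was changed there than passed here, which eases the adjusted threshold, so these shares can overstate recovery here. Not passing thus says little about differences near 0.1, and it does not exclude differences near 0.2.

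The HTA1-HTB1 difference was -0.23 (SE 0.053, 95% interval -0.35 to -0.12, limma adjusted p = 0.0678), and 6 windows of 1114 had a lower one. The difference was -0.087 (SE 0.043, 95% interval -0.18 to 0.0064, limma adjusted p = 0.302) for HTA2-HTB2 and -0.11 (SE 0.038, 95% interval -0.19 to -0.026, limma adjusted p = 0.196) for HHT1-HHF1. It was 0.099 (SE 0.041, 95% interval 0.0089 to 0.19, limma adjusted p = 0.240) for HHT2-HHF2. The HTA1-HTB1 difference passed in 6 of 32 other settings: with the 2 groups fitted alone (limma adjusted p = 0.00377), over the wild-type 0-min libraries (-0.19, 0.0379), with rows of ratio 0 kept (0.0499), without eco1 0-min replicate 1 (-0.25, 0.0373), and without either eco1 40-min library (0.00463).

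**Figure D4:**
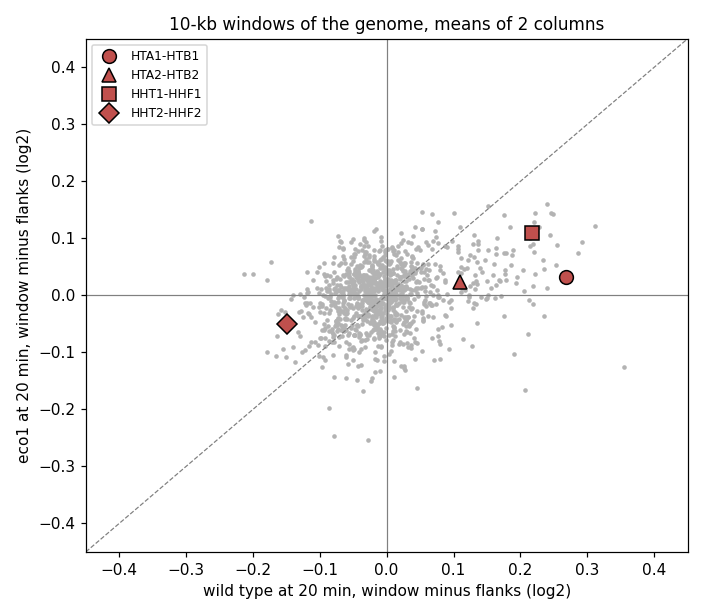
Window minus flanks at 20 min in wild type (x axis) against eco1 (y axis), both log2, means of 2 columns, for 10-kb windows (grey) and the 4 histone pairs (red symbols); 1110 windows are drawn and 4 lie outside the axes. HTA1-HTB1 (0.27 and 0.033), HHT1-HHF1 (0.22 and 0.11) and HTA2-HTB2 (0.11 and 0.023) lie right of and below the dashed line of equal values, and HHT2-HHF2 (-0.15 and -0.051) left of and above it.

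Row by row, both eco1 values lay below both wild-type values in 8 of 10 rows at HTA1-HTB1, 6 of 10 at HTA2-HTB2, 5 of 8 at HHT1-HHF1 and 1 of 10 at HHT2-HHF2, where 25.3% of all rows did so. They lay above in 0, 1, 2 and 4 rows, where 23.7% of all rows did so. At HTA1-HTB1 the 2 rows outside this pattern were the one with the end of CRF1 and the right edge of the window, in SIR4.

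At HHT1-HHF1, HTA2-HTB2 and HTA1-HTB1 the strains stood further apart in the rows that hold the histone genes than in the other rows of the window, which was not tested. The mean of the 2 rows over HHF1 and HHT1 was 0.50 and 0.44 in replicates 1 and 2 of wild type at 20 min and -0.041 and -0.24 in those of eco1, with group means of 0.47 ± 0.040 and -0.14 ± 0.14 (SD, n = 2). The other 6 rows of that window stood at 0.20 ± 0.00082 in wild type and 0.16 ± 0.0051 in eco1. With the rows over histone genes left out, the HHT1-HHF1 difference between the strains changed sign, to 0.026 (limma adjusted p = 0.809), and with outlying rows filtered it was -0.041 (0.655).

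At HTA2-HTB2 the 2 rows over the genes stood at 0.29 ± 0.080 in wild type and 0.0023 ± 0.12 in eco1, and the other 8 rows at 0.15 ± 0.033 and 0.046 ± 0.0065. At HTA1-HTB1 the 2 rows over the genes stood at 0.25 ± 0.018 and -0.059 ± 0.012, and the other 8 rows at 0.23 ± 0.0061 and 0.026 ± 0.030. Without its gene rows the HTA1-HTB1 difference between the strains was -0.21 (limma adjusted p = 0.0905). At HHT2-HHF2 the 3 rows over the genes stood at -0.041 ± 0.0019 in wild type and -0.082 ± 0.0095 in eco1, and the other 7 rows at -0.057 ± 0.0062 and -0.027 ± 0.0066.

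The single row that holds HHF1 (II:255001-256000) stood at 0.54 and 0.66 in wild type at 20 min, 0.30 and 0.62 in wild type at 40 min, at the chromosome median and at -0.31 in eco1 at 20 min, and at 0.21 and -0.32 in eco1 at 40 min. It was thus high in wild type at both times and scattered in eco1. The gene copies resemble each other in sequence, and reads that fit HHF1 and HHF2 or HHT1 and HHT2 equally could have been split or lost in alignment. This was not tested.

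Reads recovered for each of the 12 libraries show which library moved. The log2 read density of the HTA1-HTB1 window over its flanks was -0.16 and -0.11 in wild type at 0 min, 0.14 and 0.15 at 20 min, and -0.082 and -0.057 at 40 min. In eco1 it was -0.13 and -0.041 at 0 min, -0.085 and -0.043 at 20 min, and -0.031 and -0.17 at 40 min. Only the wild-type 20-min libraries lay above 0, and the eco1 libraries of all times overlapped each other. For HHT1-HHF1 the wild-type values were -0.10 and -0.086 at 0 min, 0.10 and 0.098 at 20 min, and -0.068 and -0.12 at 40 min, and the eco1 values were -0.10 and -0.15, then 0.024 and -0.020, then -0.11 and -0.12. In both strains the 20-min libraries were the highest for this pair.

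For HTA2-HTB2 the density was 0.073 and 0.11 in wild type at 20 min and between -0.079 and 0.027 in the other 10 libraries. For HHT2-HHF2, where all libraries had fewer reads than in the flanks, it was -0.43 and -0.36 in wild type at 20 min, -0.35 and -0.37 in eco1 at 20 min, and between -0.32 and -0.23 in the 8 libraries of 0 and 40 min. The 20-min libraries were thus the lowest in both strains, and at 20 min the strains overlapped in density.

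At 0 min, before release, the strains differed in window density by 0.054 at HTA1-HTB1, -0.016 at HTA2-HTB2, -0.033 at HHT1-HHF1 and -0.082 at HHT2-HHF2 (eco1 minus wild type). These offsets enter the ratios with the opposite sign. For HHT2-HHF2 the offset is nearly as large as the difference of 0.099 between the strains at 20 min. The rows over HHF1 and HHT1 had a density of -1.15 ± 0.021 in the wild type against -0.88 ± 0.084 in eco1 (SDs, n = 2) at 0 min, and of -0.72 ± 0.043 against -1.02 ± 0.031 at 20 min. The order of the strains there thus turned between 0 and 20 min, and part of the 20-min ratio difference was present in the 0-min libraries.

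**Figure D5:**
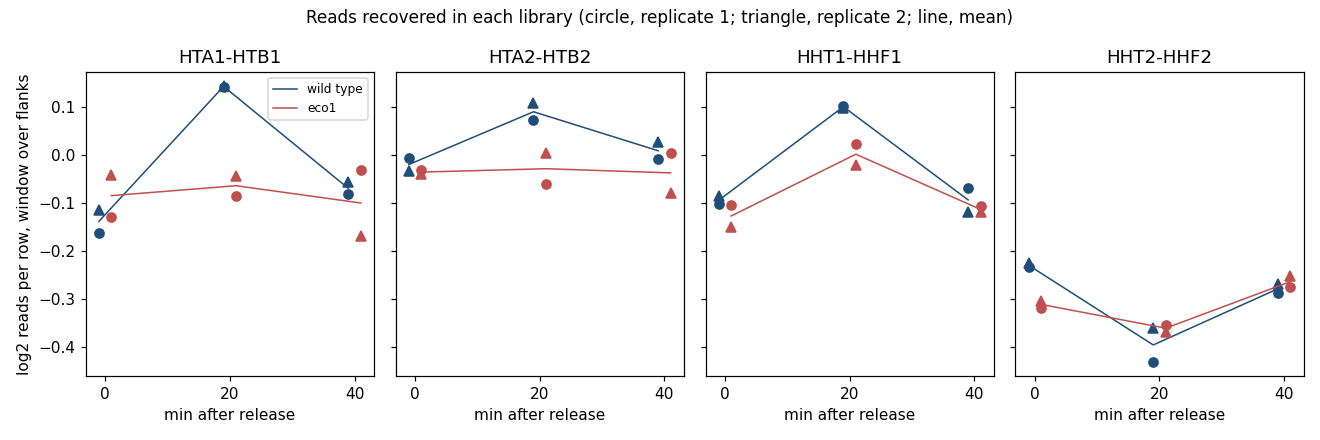
Log2 reads per row in each pair's window over its flanks (y axis) in all 12 libraries, against min after release (x axis), in wild type (blue) and eco1 (red); circles are replicate 1, triangles replicate 2 and lines join the means of 2. At HTA1-HTB1 only the wild-type 20-min libraries (0.14 and 0.15) stand above 0, and at HHT2-HHF2 both strains are lowest at 20 min.

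In eco1 at 40 min the differences from the flanks were 0.085 and -0.097 for HTA1-HTB1, 0.030 and -0.0017 for HTA2-HTB2, -0.0013 and -0.00014 for HHT1-HHF1, and 0.033 and -0.012 for HHT2-HHF2. None of the 4 passed, with limma adjusted p of 0.986 for 3 pairs and 0.992 for HHT1-HHF1, where 0.359% of windows, 4 of 1114, passed and 41 had an unadjusted p under 0.05. The replicates were farthest apart at HTA1-HTB1, by more than any difference between strains at 40 min.

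At 40 min the difference between the strains (eco1 minus wild type) was -0.062 for HTA1-HTB1 (95% interval -0.18 to 0.055), 0.0078 for HTA2-HTB2 (-0.085 to 0.10), -0.020 for HHT1-HHF1 (-0.10 to 0.062) and 0.044 for HHT2-HHF2 (-0.045 to 0.13). None passed by limma (adjusted p 0.639 to 0.942), where 0.449% of windows passed, and the groups overlapped at all 4 pairs, where 38.2% of windows did not overlap (20.3% higher, 18.0% lower in eco1). Row by row, both eco1 values lay above both wild-type values in 2 of 10 rows at HTA1-HTB1, 0 of 10 at HTA2-HTB2, 2 of 8 at HHT1-HHF1 and 2 of 10 at HHT2-HHF2, where 18.6% of all rows did so, and below them in 1, 1, 2 and 1 rows, where 18.0% did so. The HTA1-HTB1 difference was -0.15 (limma adjusted p = 0.0334) without eco1 40-min replicate 1 and 0.029 (0.991) without its replicate 2, so its direction rested on 1 library. The HHT2-HHF2 difference was 0.097 (limma adjusted p = 0.383) with reads summed over rows.

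From 20 to 40 min in eco1, HHT1-HHF1 changed by -0.11 (SE 0.038, limma adjusted p = 0.997), which was the sixth lowest of 1114 windows, rank 6. The other changes were -0.038 for HTA1-HTB1, -0.0087 for HTA2-HTB2 and 0.061 for HHT2-HHF2. Values at 40 min lay on one side of those at 20 min for HHT1-HHF1 (below) and HHT2-HHF2 (above), where 25.7% of windows did so. By limma 0 windows of 1114 passed (0.0%), with 35 at an unadjusted p under 0.05.

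Whether the change over time differed between the strains was tested as well. The difference of the changes was 0.17 for HTA1-HTB1 (SE 0.076, 95% interval 0.0080 to 0.34), 0.094 for HTA2-HTB2 (SE 0.060), 0.088 for HHT1-HHF1 (SE 0.054) and -0.054 for HHT2-HHF2 (SE 0.058). By limma 0 windows passed (0.0%), all adjusted p of the pairs were 0.999, and 16 windows had an unadjusted p under 0.05.

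The 97 windows that passed higher in wild type at 20 min, 3 pairs among them, had a median of 0.17 there, 0.033 in wild type at 40 min, 0.047 in eco1 at 20 min and 0.0027 in eco1 at 40 min. The choice sets the first of these medians, and the second rests on columns that share their 0-min libraries with it. Lower medians in columns that were not used for a choice follow from choosing by a threshold, so they are no measure of change. Of the 97, 79 stood above 0 in eco1 at 20 min. The 45 that passed lower, HHT2-HHF2 among them, had medians of -0.12, -0.039, -0.038 and 0.0074.

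The other histone genes lay in windows that did not pass the test against their flanks. HTZ1, which encodes the variant H2A.Z, stood at -0.074 ± 0.027 (SD, n = 2) in wild type at 20 min (limma adjusted p = 0.0953). CSE4, the centromeric H3 variant, stood at -0.046 ± 0.052, and HHO1, the linker histone, at -0.019 ± 0.017. Of these 3 genes, 0 passed in any group or comparison between groups. Of all windows, 12.7% passed in wild type at 20 min and 1.8% or fewer in each other comparison, so 0 of 3 is near these shares. HHO1 lies 4.2 kb from the centre of its window.

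Of 22 genes for regulators, chaperones and assembly factors of core histones, 3 lay in windows that passed higher in wild type at 20 min and 0 in windows that passed lower, where 8.71% and 4.04% of all windows did so, which is near the list's share. The list's median was 0.00021 against -0.0096 over all windows. The 3 were SWI6, a subunit of the factors that switch on histone genes (0.18 ± 0.035, SD, n = 2; limma adjusted p = 0.00162), PSH1, the ubiquitin ligase of Cse4 (0.17 ± 0.069, 0.0119), and POB3, a subunit of the FACT chaperone (0.16 ± 0.0023, 0.00235). From 20 to 40 min in wild type SWI6 fell by 0.22 (SE 0.040, limma adjusted p = 0.0145), as the only one of the 22, where 1.8% of all windows fell. In wild type at 40 min, in eco1 at either time and between the strains, 0 of the 22 passed. Of all windows, 0.0898% passed in wild type at 40 min, and 1.62% and 0.359% in eco1 at 20 and 40 min. Between the strains 0.718% passed at 20 min and 0.449% at 40 min, so 0 of 22 is near all these shares. At 20 min in eco1 these 3 windows stood at 0.074 (SWI6), 0.025 (PSH1) and 0.018 (POB3).

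The centromere of chromosome II lies in the HTA2-HTB2 window, so its values are those of that pair and the gene pair and the centromere cannot be told apart. Of 15 centromeres that could be placed between the first genes of the chromosome arms, 3 passed higher (CEN2, CEN12 and CEN13) and 1 lower (CEN11) in wild type at 20 min, where 8.71% of all windows passed higher and 4.04% lower, with a range of -0.13 to 0.15 and a median of -0.054. In eco1 at 20 min 1 passed lower, CEN6 at -0.25 ± 0.069 (SD, n = 2; limma adjusted p = 0.0489), where 0.718% of all windows passed lower, and between the strains 0 passed.

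For each pair, the 2 windows more than 50 kb from any pair whose 8 values were nearest to it (Euclidean distance, log2) were named by the gene nearest their centre. HTA1-HTB1 was most like the windows of LOH1 (distance 0.14) and UBC12 (0.15), where the median window lay at 0.45. HHT1-HHF1 was most like those of BOI1 (0.075) and PHM7 (0.077), where the median was 0.39. HTA2-HTB2 was most like those of ATG41 (0.083) and VRL1 (0.084), where the median was 0.24. HHT2-HHF2 was most like those of BYE1 (0.075) and DCC1 (0.092), where the median was 0.27. The LOH1 window stood at 0.24 in wild type at 20 min and 0.013 in eco1, and the BOI1 window at 0.21 and 0.10. The BYE1 window, at -0.13 and -0.028, is the one that holds CEN11, and the VRL1 window the one that holds CEN13.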

How the data were processed

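Genomic DNA of 12 libraries, 2 per strain and time, was sequenced. Per the submitters' processing notes, CASAVA 1.8.2, Bowtie and the build sacCer3 were used, and roles and parameters are not given in the sources used here. The authors deposited 1 table of 1000-bp rows with 8 ratio columns in log2 units, which fit log2 of RPM plus 1 at 20 or 40 min divided by RPM plus 1 at 0 min. Log base and pseudocount were settled from the values. Headers do not say which 0-min library each ratio used, and the one with matching strain and replicate number was assumed. The authors' 8 smoothed columns, a score of another scale, were not used.

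Whole reads were recovered from the ratios (tolerance 0.0001), with all 12165 rows solved; intervals and SDs from them cover counting error only. Their sum over rows was 1.05 times the number mapped. Rows with a ratio of exactly 0, 449 in all, 355 of them without a read, were dropped. Columns were centred on chromosome medians. Windows of 10 kb were laid so that each histone pair was 1 window. The value was the mean over rows within 5 kb minus that over rows 10 to 40 kb away, with at least 10 rows on each side, in 1114 of 1207 windows.

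Limma 3.58.1 (R 4.3.3) was fitted with 4 groups of 2 columns and no covariate (4 residual and 7.73 prior degrees of freedom), two-sided, with Benjamini-Hochberg adjustment over all windows and a threshold of 0.05, and tested on simulated data. The 9 results are each group against 0, eco1 against wild type at each time, 40 against 20 min within a strain, and a test of whether that change differed between strains. Alternatives changed centring, flanks, half-width, row filters, scale, denominator, threshold, the groups fitted and replicate blocks, and left out each library. Members, lists and tests were chosen with earlier results of these data known. Genes named are the core histone genes, other histone genes, a list of regulators, chaperones and assembly factors (values for those past the threshold), centromeres, and the 2 windows most like each pair. Gene names and positions come from RefSeq's table of assembly R64. Origins of replication and sequences were not used here.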

Additional observations from a re-analysis of the deposited data

How the results depend on the processing

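For 36 results (4 pairs in 9 comparisons), 1160 values under other settings were computed. Of these, 84 had the other sign from the reported value, in each case with neither value past the threshold, and 0 values past the threshold turned. Because the flanks are subtracted, another centring changed nothing. HTA1-HTB1 (0.19 to 0.29) and HHT1-HHF1 (0.16 to 0.27) passed in wild type at 20 min in all 32 other settings, HTA2-HTB2 (0.044 to 0.18) in 21, and HHT2-HHF2 (-0.19 to -0.052) in 26. The number of pairs past the threshold in wild type at 20 min, 4, became 2 with flanks from 5 to 20 kb. HTA2-HTB2 alone was lost with half-widths of 2.5 kb and 10 kb, the right flank alone or an adjusted p under 0.01. HHT2-HHF2 alone was lost without flank subtraction. In eco1 at 20 min it went from 0 to 1 without rows of other pairs in the flanks, with a half-width of 10 kb, without rows over histone genes, with the filter at 4 MAD, with summed reads and with only the groups compared, and to 2 over the wild-type 0-min libraries. Between the strains at 20 min it went from 0 to 1 with rows of ratio 0 kept, over the wild-type 0-min libraries and with only the groups compared. From 20 to 40 min in wild type it went from 1 to 0 without flank subtraction, with flanks from 5 to 20 kb, a half-width of 2.5 kb, rows of ratio 0 kept, equal SD, the right flank alone or an adjusted p under 0.01, and to 2 with a half-width of 10 kb, over the wild-type 0-min libraries, with only the groups compared or with a replicate block within strain. Leaving out 1 library gave 2 to 4 pairs for wild type at 20 min, 0 to 1 for eco1 at 20 min, 0 to 1 between the strains at 20 and at 40 min, 0 to 2 for wild type over time, and 0 in the 4 other comparisons. The cause was not tested. Fits without a 0-min library, on summed reads or on 1 flank were added after seeing the data. A left-out library leaves 1 column in its group, which is assumed to vary like the other groups.

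Same-numbered replicates did not pair the samples between the strains, where deviations correlated at 0.050 (20 min) and -0.40 (40 min). Between the times of a strain, whose columns share a 0-min library, they correlated at 0.57 in wild type and -0.023 in eco1. The main fit of 40 against 20 min left this wild-type pairing out, and the replicate block within strain, given above, kept it. With the replicate number as a block common to both strains, 4 pairs passed in wild type at 20 min, 1 from 20 to 40 min in wild type and 0 in the other comparisons.

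Counts over all windows moved more. For wild type at 20 min 142 windows became 34 to 218 with a library left out and 81 to 214 in other settings. For eco1 at 20 min 18 became 4 to 90 and 0 to 284, for the strains at 20 min 8 became 4 to 85 and 0 to 88, and for wild type over time 20 became 0 to 51 and 0 to 42. At 40 min 1 in wild type became 0 to 19 and 0 to 91, 4 in eco1 became 4 to 55 and 0 to 7, and 5 between the strains became 4 to 171 and 0 to 8. Over time in eco1, 0 became up to 8 with a library left out.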
